A study of Mus musculus with 20 samples.

Results

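The excitation-contraction coupling genes described here are 10 genes whose products turn the electrical signal of a muscle fibre into calcium release, or set how fast the calcium is pumped back. They are Cacna1s, Cacng1, Stac3, Ryr1, Trdn, Asph, Jph1, Jph2, Sln and Pln. All 10 were found among the 55401 genes of the count table, and all 10 passed the filter on low counts, which kept 13626 genes. RNA of the gastrocnemius, a calf muscle, was sequenced from 20 C57BL/6 mice aged 24 months. In 10 of them HK (Haenkenium, an extract of the plant Salvia haenkei) had been given in the drinking water at 0.5 mg/kg per day for 4 months, starting at 20 months of age, and the other 10 were untreated and had plain drinking water. Each treatment group held 5 males and 5 females. The titles of the treated females start with HF in place of HK, and these mice were grouped by their treatment label. The labels name 2 experimental batches: batch 1 holds replicates 1 and 2 of each group and sex (8 mice), and batch 2 holds replicates 3 to 5 (12 mice).

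In a skeletal muscle fibre the action potential runs into the transverse tubules, where the voltage sensor, an L-type calcium channel, is held against the ryanodine receptor of the sarcoplasmic reticulum at a junction called the triad. Movement of the sensor opens the ryanodine receptor, calcium floods the myofilaments, and the SERCA pumps return it to the store. Fast and slow fibres use different pumps, buffers and pump regulators, and the gastrocnemius of the mouse is mostly fast.

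Total counts per mouse ran from 13900180 to 30469644 with a median of 17016047. Between mice of the same group and batch, counts varied by more than counting error, with a chi-square per degree of freedom of 8.06 to 49.6 over 16 pairs. Levels are given as CPM, counts scaled to the library total after TMM normalization, and genes are compared with each other only after division by the length of their exons in kb. The label of the tissue was checked against its markers: 6 skeletal muscle genes (Acta1, Ckm, Myh4, Myh1, Des and Mb) summed to 100742 to 139214 CPM per mouse, led by Myh4, the myosin of the fastest fibres, with a mean of 60196 CPM. Of the heart markers, Myl7 had 0 counts in every mouse, and the cardiac ryanodine receptor Ryr2 had 0 to 13 counts per mouse and did not pass the filter. Nppa had at most 4 counts and Tnni3 at most 8 in any mouse. Still, 3 of the 6 genes of the heart list passed the filter, led by Myl4 with a mean of 17.9 CPM. The sum of the heart list ran from 13.9 to 110 CPM per mouse.

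On the scale of CPM per kb of exon, 7 of the 8 triad members formed a group of high levels, and Asph and the 2 regulators of SERCA stood under them. The voltage sensor subunit Cacng1 had the highest level per kb, 272.8 ± 41.7 CPM per kb (SD, n = 20), followed by Ryr1 at 247 ± 38.4 and Cacna1s at 242 ± 28.0. Trdn had a level of 220.0 ± 31.4 CPM per kb and Jph2 one of 185 ± 30.6. Stac3 followed at 103 ± 8.21 CPM per kb and Jph1 at 94.1 ± 13.2. The ranges of these neighbours overlapped, while within a mouse the order was even for some pairs and mostly the same for others. Cacng1 was above Ryr1 in 13 of 20 mice, Ryr1 above Cacna1s in 10 and Cacna1s above Trdn in 16. Trdn was above Jph2 in 18 and Stac3 above Jph1 in 15, all on the per-kb scale. Jph2 was above Stac3, and Jph1 above Asph, in all 20 mice. Asph had a mean of 15.6 ± 1.35 CPM per kb, Sln one of 8.28 ± 8.59 and Pln one of 0.902 ± 0.523. Asph was above Sln in 17 mice, and Sln was above Pln in all 20, on that scale.

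The order at the top rests on which length is used, since triadin and Ryr1 have many annotated exons that no single transcript holds. Divided by the longest transcript in place of all exons, the mean level of Trdn was 456 CPM per kb, that of Ryr1 351 and that of Cacng1 273, so that Trdn came first. By that length Asph had a mean of 37.6 CPM per kb in place of 15.6, and stayed in eighth place. For comparison on the scale of all exons, Atp2a1, the SERCA pump of fast fibres, had a mean of 10539 CPM per kb, and Casq1, the calcium-binding protein of the fast fibre store, one of 1320 CPM per kb. Atp2a2, the pump of slow fibres and heart, had 92.4 CPM per kb, and Casq2, the calsequestrin of slow fibres and heart, 18.2 CPM per kb. In relative spread of the level over the 20 mice, Stac3 had a coefficient of variation of 7.94% and Asph one of 8.62%, and the other triad members had 11.6% to 16.6%. The spread of Pln was 58.0% and that of Sln 104%, so that the measured levels of the SERCA regulators varied more than those of the triad genes. Counting error weighs more on few counts and is part of this spread. Pln had a median of 36 counts per mouse and Sln 146.5, while every triad member had 3040 or more in each mouse. Without untreated female 3 the spread of Sln was 65.5%, and without untreated female 1 that of Pln was 42.5%.

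**Figure D1:**
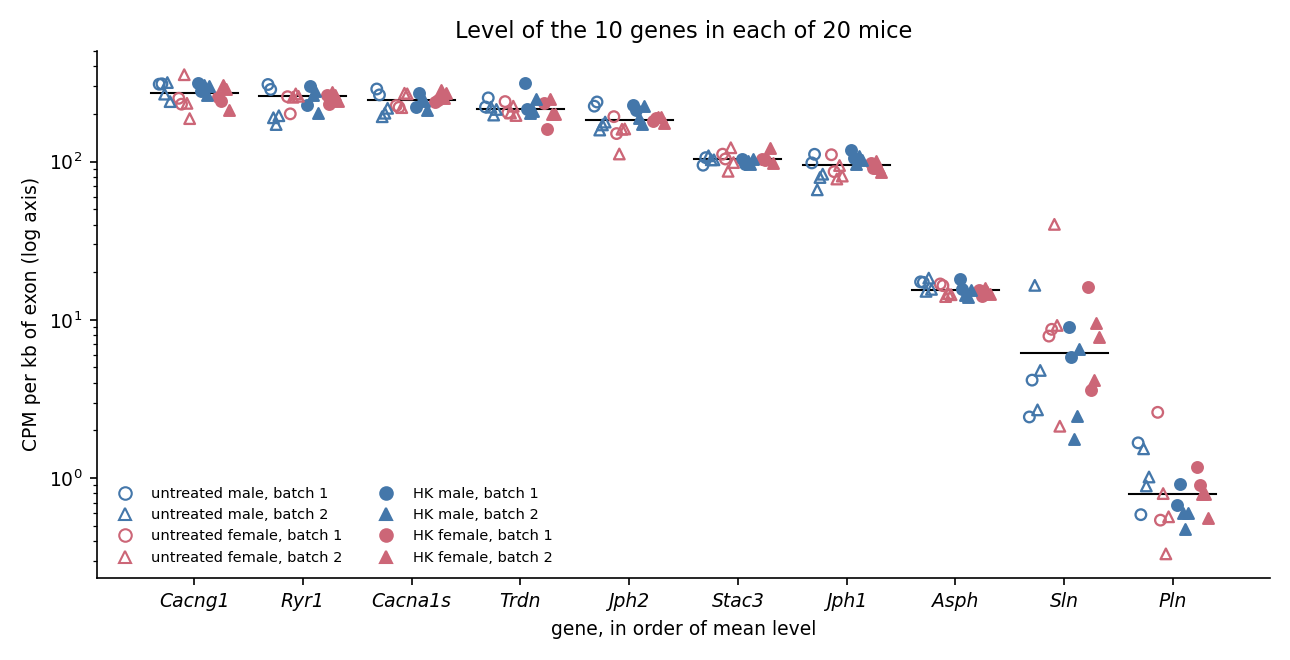
Level of each of the 10 genes in each of the 20 mice, as CPM per kb of exon on a log axis, with genes in order of their mean. Open marks are untreated and filled marks HK mice, blue males and red females, circles batch 1 and triangles batch 2, and the line is the median of all 20. Sln runs from 1.76 to 40.1 CPM per kb, while Stac3 runs from 86.8 to 122.

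The comparison of HK with untreated mice asks whether the transcripts differed in treated mice of the same age, with batch and sex as covariates. In edgeR's quasi-likelihood test, with p adjusted by the method of Benjamini and Hochberg, 0 of the 10 genes had an adjusted p under 0.05, against 0 of all 13626 genes (0%). The DESeq2 Wald test called 7 genes and limma voom 0, and both called 0 of the 10 members. At an unadjusted p under 0.05, 2 members were higher with HK, Jph1 and Jph2, and 0 were lower, while of all genes 379 were higher (2.78%) and 456 lower (3.35%). The median log2 fold change of the members was 0.04, against 0.00 over all genes, with 6 members above 0 and 4 under it. Adjusted p of the members ran from 0.795 to 0.987. Since whole muscle was sequenced, fewer cells of a type and less RNA per cell cannot be told apart in any of these values.

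Between males and females, 0 of the 10 genes passed by edgeR's quasi-likelihood test, although 2197 of all genes did (16.1%), of which 1198 were higher in males (8.79%) and 999 lower (7.33%). At an unadjusted p under 0.05 there was 1 member, Jph2, higher in males, against 15.6% of all genes higher and 14.8% lower. The DESeq2 Wald test and limma voom both called it. Between the batches, 2 of the 10 genes passed, Jph1 and Jph2, both lower in batch 2, where 5062 of all genes passed (37.1%), 2474 higher in batch 2 (18.2%) and 2588 lower (19%). A share of 2 in 10 is under the share among all genes. The median log2 difference of the members was 0.04 for male against female, where all genes had -0.01, and -0.11 for batch 2 against batch 1, where all genes had 0.00.

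**Figure D2:**
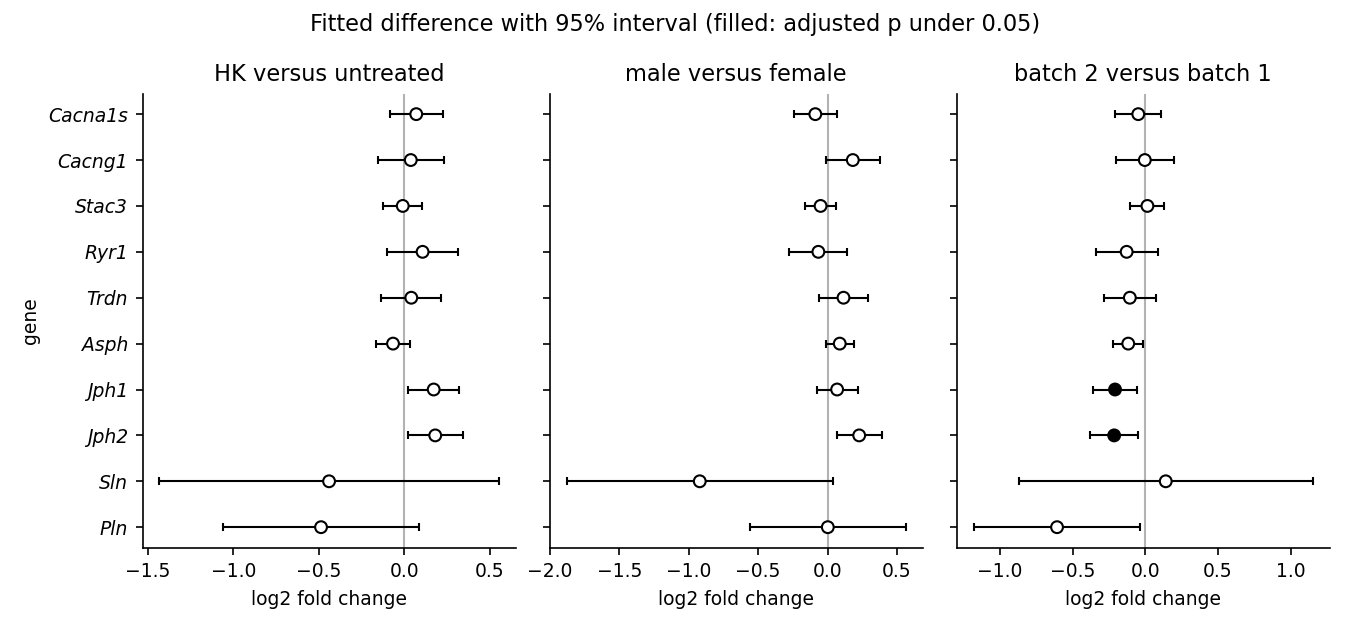
Fitted log2 difference of each gene with its 95% interval in 3 comparisons: HK against untreated, male against female, and batch 2 against batch 1 (20 mice, positive values are higher in the first named group). Filled points have an adjusted p under 0.05: Jph1 and Jph2 between the batches. The intervals of Sln and Pln are the widest in all 3 panels.

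The voltage sensor is represented by 3 genes. Cacna1s (1:136052750-136119822 on the GRCm38 build, plus strand) encodes its pore and voltage-sensing subunit, and lies in the tubule membrane. An antisense gene shares 20% of its exon bases (1309 bases). In HK mice Cacna1s was at 1390 at the lowest, 1601 at the median and 1859 CPM at the highest, and in untreated mice at 1257, 1461 and 1881 CPM. The untreated mice held both the lowest value, in male 3, and the highest, in male 1, so the untreated range enclosed the HK range. The log2 fold change of Cacna1s with HK was 0.07 (SE 0.075, n = 20, 95% interval -0.09 to 0.23, p = 0.362 and adjusted p = 0.887 by edgeR's quasi-likelihood test), with 8 of 10 HK mice above the untreated median. Between the sexes its log2 difference, male minus female, was -0.09 (SE 0.075, adjusted p = 0.461 by edgeR). The sign turned with the batch, at 0.16 within batch 1 (adjusted p = 0.305) and -0.28 within batch 2 (adjusted p = 0.0459).

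Cacng1 (11:107703218-107716522, minus strand) encodes the gamma subunit of the same channel. Its level was 265 to 394 CPM with a median of 354 in HK mice and 233 to 442 CPM with a median of 323 in untreated mice, where untreated female 5 was the lowest and untreated female 3 the highest of all 20. Its log2 fold change with HK was 0.04 (SE 0.093, adjusted p = 0.957 by edgeR). Between the sexes, males had 299 to 394 CPM with a median of 376 and females 233 to 442 CPM with a median of 308. Of the 10 males, 9 were above the female median, and the female range enclosed the male range. The log2 difference, male minus female, was 0.18 (SE 0.093, n = 20, p = 0.0641, adjusted p = 0.194 by edgeR). It was 0.12 without untreated female 5. It passed without untreated female 3, at 0.26 with an adjusted p of 0.0228, and within batch 1 alone, at 0.30 with an adjusted p of 0.0207, while within batch 2 alone the adjusted p was 0.771.

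Stac3 (10:127501686-127508823, plus strand) encodes an adaptor that brings the channel to the triad and is needed for the coupling. Its level was 245 to 308 CPM in HK mice and 221 to 311 CPM in untreated mice, with medians of 263 CPM in both. Its log2 fold change was -0.01 with HK (SE 0.055), -0.05 for male against female and 0.01 for batch 2 against batch 1. None of these 3 differences had an adjusted p under 0.580 by edgeR's quasi-likelihood test.

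The calcium release channel itself is encoded by Ryr1 (7:29003344-29125179, minus strand), the most counted member with 61510 to 178689 counts per mouse. In HK mice Ryr1 was at 4451 CPM at the lowest, 5764 at the median and 6580 at the highest, and in untreated mice at 3740, 5585 and 6698 CPM. Under the lowest HK mouse lay 4 untreated mice, males 4, 3 and 5 of batch 2 and female 2 of batch 1, and the highest of all was untreated male 1. With HK the log2 fold change of Ryr1 was 0.11 (SE 0.1, n = 20, 95% interval -0.10 to 0.32, p = 0.296, adjusted p = 0.866 by edgeR), with 6 of 10 HK mice above the untreated median. In batch 1 alone it was -0.02. On the opposite strand, an antisense gene and a miRNA gene share 4.19% of the exon bases of Ryr1 (864 and 50 bases).

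Trdn (10:33080554-33476709, plus strand) encodes triadin, which ties the release channel to calsequestrin inside the store. Its level was 1511 to 2948 CPM in HK mice, with a median of 1975, and 1827 to 2361 CPM in untreated mice, with a median of 2028. Here the HK mice held both ends, with HK female 2 the lowest and HK male 1 the highest. For triadin the log2 fold change was 0.04 (SE 0.084, adjusted p = 0.950 by edgeR), and -0.02 without HK male 1.

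Asph (4:9448069-9669344, minus strand) encodes junctin, a partner of triadin at the release channel, and from the same gene an enzyme, aspartyl beta-hydroxylase. The counts are per gene and do not separate these products. Of its exon bases 14.7% are shared with 2 genes on the opposite strand. In HK mice Asph was at 224 CPM at the lowest, 246 at the median and 291 at the highest, and in untreated mice at 226, 258 and 295 CPM. Of the 10 HK mice 9 were under the untreated median, and HK male 1 alone was above it. This gave a log2 fold change of -0.07 (SE 0.048, n = 20, p = 0.182, adjusted p = 0.836 by edgeR). Asph was also lower in 11 of 12 mice of batch 2 than the median of batch 1, by a log2 difference of -0.12 (SE 0.049, n = 20, p = 0.0244, adjusted p = 0.062 by edgeR). That difference passed without HK female 2 (adjusted p = 0.036), without HK female 3 (0.0351) and without untreated male 4 (0.032).

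The junctophilins hold the tubule and store membranes together. Jph1 (1:16964560-17097889, minus strand) encodes the form typical of skeletal muscle, and Jph2 (2:163336242-163397993, minus strand) the form shared with the heart. With HK, the lowest, median and highest levels of Jph1 were 428, 495 and 589 CPM, against 331, 424 and 555 CPM in untreated mice. All 10 HK mice were above the untreated median, and the ranges overlapped because 5 untreated mice, males 1 and 2 and females 1, 2 and 4, stood among the HK mice. Jph1 had a log2 fold change of 0.17 (SE 0.071, n = 20, 95% interval 0.02 to 0.32, p = 0.0251, adjusted p = 0.795 by edgeR's quasi-likelihood test), which does not pass over all genes.

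For Jph2 the lowest, median and highest levels were 731, 812 and 973 CPM with HK and 475, 704 and 1012 CPM in untreated mice. Again all 10 HK mice were above the untreated median, and 4 untreated mice, males 1, 2 and 5 and female 1, lay within or above the HK range. Jph2 had a log2 fold change of 0.18 (SE 0.078, n = 20, 95% interval 0.02 to 0.34, p = 0.0307, adjusted p = 0.795 by edgeR). Both differences were close to 0 within batch 1 and larger within batch 2. Jph1 had a log2 fold change of 0.01 (SE 0.091) in batch 1 alone and 0.27 (SE 0.087) in batch 2 alone, and Jph2 had 0.01 (SE 0.085) and 0.29 (SE 0.101). The difference between batches in the HK effect was itself tested and was 0.26 for Jph1 (SE 0.137, p = 0.0781) and 0.28 for Jph2 (SE 0.151, p = 0.0779; n = 20), each with an adjusted p of 1 by edgeR. By sex, the Jph1 fold change was 0.29 in males and 0.05 in females, and that of Jph2 was 0.09 in males and 0.26 in females, while the interaction with sex had p = 0.106 and p = 0.283 (n = 20).

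Both junctophilins were lower in batch 2 than in batch 1. Jph1 was at 431, 508 and 589 CPM (lowest, median, highest) in batch 1 and at 331, 440 and 539 CPM in batch 2, where 10 of 12 mice were under the batch 1 median. Its log2 difference was -0.21 (SE 0.072, adjusted p = 0.0281 by edgeR). Jph2 was at 639, 860 and 1012 CPM in batch 1 and at 475, 737 and 956 CPM in batch 2, with 11 of 12 mice of batch 2 under the batch 1 median. Its log2 difference was -0.22 (SE 0.079, adjusted p = 0.0386 by edgeR). HK male 5 was the mouse of batch 2 with a high Jph2 value, and untreated female 2 was the lowest of batch 1 for both genes. With any single mouse left out both differences kept their sign, from -0.243 to -0.156 for Jph1 and from -0.238 to -0.165 for Jph2, while the calls were lost without some of them. The adjusted p of Jph1 was 0.0977 without untreated female 1, 0.0513 without untreated female 3, 0.0685 without untreated male 2 and 0.0584 without untreated male 4. For Jph2 it was above 0.05 when any of 9 mice was left out: untreated males 1 to 5 (0.0773, 0.0936, 0.0637, 0.0731 and 0.0503), untreated females 1 and 3 (0.108 and 0.0623) and HK males 3 and 4 (0.0554 and 0.0533). Without covariates the adjusted p was 0.0592 for Jph1 and 0.101 for Jph2, without both untreated mice numbered 3 it was 0.0816 and 0.107, and with the size factors of DESeq2 it was 0.0507 for Jph2.

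Markers of several cell types also differed between the batches, and their part in the batch differences of Jph1 and Jph2 was not tested. Of all genes 37.1% passed between the batches by edgeR, 18.2% higher in batch 2 and 19% lower. In batch 2, 5 of 5 macrophage genes were higher, with summed levels of 13.6, 29.1 and 46.8 CPM (lowest, median, highest) in batch 1 and 45.4, 104 and 231 CPM in batch 2, led by Lyz2. Of the fibroblast genes 4 of 4 were higher, with sums of 144 to 370 CPM in batch 1 and 262 to 1269 CPM in batch 2, led by Dcn. Blood genes were higher in 4 of 4, with sums of 24.8 to 75.6 CPM against 46.7 to 318 CPM, led by Hbb-bs. Smooth muscle genes were higher in 3 of 5, with sums of 76.9 to 136 CPM against 120 to 191 CPM, led by Smtn. Of the heart list 2 of 3 tested were higher, with sums of 13.9 to 25.9 CPM against 15.2 to 110 CPM, led by Myl4. Denervation genes, which rise in fibres that have lost their nerve, were higher in 7 of 9, with sums of 68.5, 91.7 and 165 CPM in batch 1 and 93.9, 152 and 472 CPM in batch 2, led by Gadd45a. Untreated male 5, of batch 2, had the highest sum of both this list and the heart list, and a link between the lists was not tested. The skeletal muscle list had 3 of 6 higher and the fast fibre list 1 of 7, while of the slow fibre, endothelium and adipocyte lists 0 genes passed between the batches by edgeR (unadjusted p under 0.05 in 0, 1 and 1).

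For Jph2 the male values were 673, 854 and 1012 CPM (lowest, median, highest) and the female values 475, 754 and 818 CPM. Males 1 and 2 of both treatment groups and HK male 5 were above every female, and 7 of 10 males were above the female median. The log2 difference, male minus female, was 0.23 (SE 0.078, n = 20, p = 0.0084), and the adjusted p of 0.0513 by edgeR lay just above the threshold. It was 0.0306 by the DESeq2 Wald test and 0.0468 by limma voom. Within batch 1 alone the difference was 0.34 (adjusted p = 0.0353 by edgeR) and within batch 2 alone 0.13 (adjusted p = 0.472). Leaving out 1 of 5 mice also brought it under the threshold: untreated male 3 (0.0416), HK male 2 (0.0486), untreated female 1 (0.0443), HK female 3 (0.0402) or HK female 4 (0.0444).

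**Figure D3:**
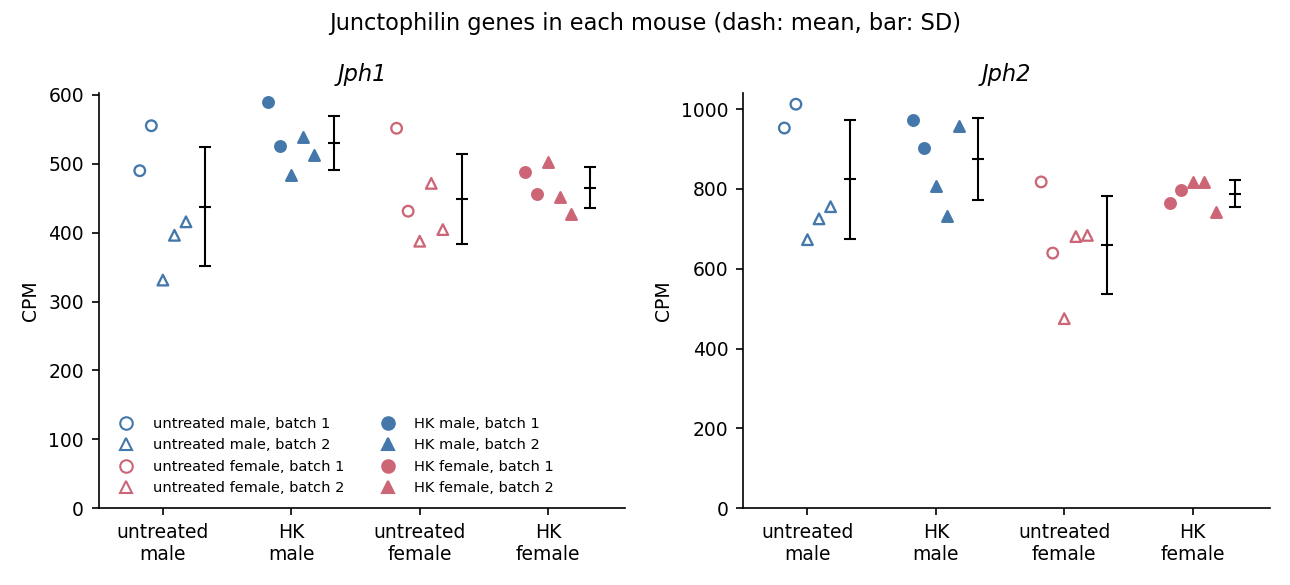
Jph1 and Jph2 in each mouse, in CPM, by treatment and sex, with the mean as a dash and the SD as a bar (5 mice per group). Circles are batch 1 and triangles batch 2. The lowest mice are of batch 2, untreated male 3 at 331 CPM for Jph1 and untreated female 3 at 475 CPM for Jph2, while the HK mice start at 428 and 731 CPM.

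The SERCA regulators are micropeptides, short membrane proteins that bind the pump and slow it. Sln (9:53850164-53854560, plus strand) encodes sarcolipin, and Pln (10:53337667-53345987, plus strand) encodes phospholamban, which is best known from the heart and slow fibres. Their coding sequences are shown because the whole product is a single short reading frame, beside that of myoregulin (Mrln), a pump inhibitor of fast fibres, and that of DWORF (Strit1), which counters these inhibitors. The reading frame of Sln has 31 codons before the stop (9:53853473-53853568), that of Pln 52 (10:53343864-53344022), that of Mrln 46 (10:70219496-70219636) and that of Strit1 34, in 2 coding exons (3:63481290-63483827, minus strand). Capitals mark the start and stop codons, and the sequences are from the GENCODE M21 transcripts of the GRCm38 build.
Sln: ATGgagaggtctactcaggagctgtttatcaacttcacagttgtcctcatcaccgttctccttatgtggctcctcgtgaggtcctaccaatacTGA
Pln: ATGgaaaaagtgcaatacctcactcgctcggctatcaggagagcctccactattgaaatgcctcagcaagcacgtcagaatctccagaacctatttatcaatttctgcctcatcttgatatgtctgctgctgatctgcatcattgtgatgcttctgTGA
Mrln: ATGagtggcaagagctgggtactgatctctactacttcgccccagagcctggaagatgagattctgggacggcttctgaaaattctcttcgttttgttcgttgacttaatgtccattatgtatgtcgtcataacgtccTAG
Strit1: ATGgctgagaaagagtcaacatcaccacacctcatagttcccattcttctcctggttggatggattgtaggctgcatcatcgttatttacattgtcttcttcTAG

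Both members were scarce: Sln had 36 to 863 counts per mouse and 4186 in all, and Pln had 16 to 203 counts per mouse and 983 in all. In HK mice Sln was at 2.31 CPM at the lowest, 8.19 at the median and 21.4 at the highest, and in untreated mice at 2.80, 8.36 and 52.8 CPM. The medians were alike, and the untreated mean was raised by the 2 mice numbered 3, the female at 52.8 CPM and the male at 21.8 CPM. The other 8 untreated mice and 9 of 10 HK mice lay at or under 12.6 CPM, with HK female 1 at 21.4 CPM. Sln had a log2 fold change with HK of -0.44 (SE 0.476, n = 20, 95% interval -1.43 to 0.55, p = 0.366, adjusted p = 0.887 by edgeR), with 5 of 10 HK mice above the untreated median and 5 under it.

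The sign of the Sln difference turned with the batch. In batch 1 alone its log2 fold change was 0.68 (SE 0.406), in batch 2 alone -1.21 (SE 0.608), and the difference between these effects was -1.92 (SE 0.869, n = 20, p = 0.0395, adjusted p = 1 by edgeR). Without untreated female 3 the fold change over both batches was -0.02. Without both untreated mice numbered 3, a setting chosen after seeing the data, it was 0.41 (SE 0.326). Over all genes the interaction of HK with batch gave 0 calls by edgeR, DESeq2 and limma voom alike, and 409 genes at an unadjusted p under 0.05 (3.0%), of which Sln was the only member. The interaction of HK with sex also gave 0 calls with all 3 tools, and 476 genes at an unadjusted p under 0.05 (3.49%), none of them a member.

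For Pln the lowest, median and highest levels were 1.33, 2.02 and 3.25 CPM with HK and 0.917, 2.33 and 7.18 CPM in untreated mice. The 2 extremes were both untreated females, female 4 at the low end and female 1 at the high end, and of the untreated males, 1, 3 and 5 were the highest at 4.61, 4.23 and 2.81 CPM. Pln had a log2 fold change with HK of -0.49 (SE 0.275, n = 20, 95% interval -1.06 to 0.09, p = 0.0924, adjusted p = 0.805 by edgeR), with 7 of 10 HK mice under the untreated median. It was -0.20 without untreated female 1. From batch 1 to batch 2 the log2 difference of Pln was -0.61 (SE 0.276, n = 20, p = 0.039, adjusted p = 0.0885 by edgeR), with 10 of 12 mice of batch 2 under the batch 1 median. This passed without untreated female 2 (adjusted p = 0.0381), untreated male 2 (0.0436) or untreated male 3 (0.0446), and was -0.31 without untreated female 1.

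The Pln values carry an uncertainty of position. Of the exon bases of Pln, 64.7% are shared with genes on the opposite strand, 1644 bases with Gm47644 (659 counts in all) and 141 bases with Cep85l (18383 counts in all). Whether the counts were made by strand is not given in the sources used here. Sln shares 0 exon bases with another gene. Sln and Pln also stand on a list of genes raised with age that the study made partly from these untreated mice, so their direction here is not independent evidence on that list.

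Between the sexes, Sln was at 2.31, 5.90 and 21.8 CPM in males and at 2.80, 10.9 and 52.8 CPM in females. Of the 10 males 8 were under the female median, and the ranges overlapped. The log2 difference, male minus female, was -0.92 (SE 0.46, n = 20, p = 0.0594, adjusted p = 0.185 by edgeR), and -0.44 without untreated female 3. Pln had a log2 difference of 0.00 (SE 0.269) between the sexes.

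Since both regulators are known to differ between fibre types, and Sln in denervated muscle, 5 relations were computed over the 20 mice on log2 CPM adjusted for batch and sex, with two-sided permutation tests and Benjamini-Hochberg adjustment over the 5. Pln rose with the slow fibre score, the mean of 7 slow fibre genes, with Pearson r = 0.593 (permutation p = 0.00592, adjusted 0.0296) and Spearman rho = 0.534 (permutation p = 0.0162, adjusted 0.0726). Without the 2 mice farthest from the median score r was 0.511 (permutation p = 0.0294, adjusted 0.0734), so that the call rests on them. Within batch 1 r was 0.486 (n = 8, exact permutation p = 0.236) and within batch 2 it was 0.710 (n = 12, permutation p = 0.00766). Untreated male 3 had the highest slow fibre score and the third highest level of Pln in CPM, and without it r was 0.473, with an adjusted p of 0.208. The adjusted p was also above 0.05 without untreated female 4 (0.0535) or HK male 4 (0.0595). With values adjusted for batch but not for sex, r was 0.378 (permutation p = 0.1, adjusted 0.167).

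Sln had r = 0.485 with the slow fibre score (permutation p = 0.0334, adjusted 0.0556) and rho = 0.322 (permutation p = 0.167, adjusted 0.279). The relation rests on the 2 farthest mice, since r was 0.154 without them, and on untreated male 3, without which it was 0.231. The adjusted p was under 0.05 without untreated male 1 (0.0443), HK male 1 (0.0335) or HK female 2 (0.0485), and with values adjusted for batch only, where r was 0.580 (permutation p = 0.00708, adjusted 0.0354). The sign turned within the batches, with r = -0.492 in batch 1 (n = 8, exact permutation p = 0.235) and r = 0.686 in batch 2 (n = 12, permutation p = 0.013). With the denervation score Sln had r = 0.482 (permutation p = 0.0313, adjusted 0.0556) and rho = 0.492 (permutation p = 0.0291, adjusted 0.0726). That r was 0.530 without the 2 farthest mice, 0.474 within batch 1 (n = 8, exact permutation p = 0.235) and 0.621 within batch 2 (n = 12, permutation p = 0.0303), so that the sign was the same in these subsets while the adjustment was not passed over the 20 mice. It was passed without untreated male 5 (0.0305), HK male 1 (0.0335) or HK female 2 (0.0399).

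Pln had r = 0.185 with the denervation score (permutation p = 0.431, adjusted 0.442) and rho = 0.259 (permutation p = 0.268, adjusted 0.334), with r = 0.195 without the 2 farthest mice. It was -0.485 within batch 1 (n = 8, exact permutation p = 0.223) and 0.389 within batch 2 (n = 12, permutation p = 0.21). Sln and Pln had r = 0.181 with each other (permutation p = 0.442, adjusted 0.442) and rho = 0.066 (permutation p = 0.781, adjusted 0.781), with r = 0.136 without the 2 farthest mice. It was -0.200 within batch 1 (n = 8, exact permutation p = 0.635) and 0.458 within batch 2 (n = 12, permutation p = 0.133). No relation between the 2 pump regulators thus passed the test.

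**Figure D4:**
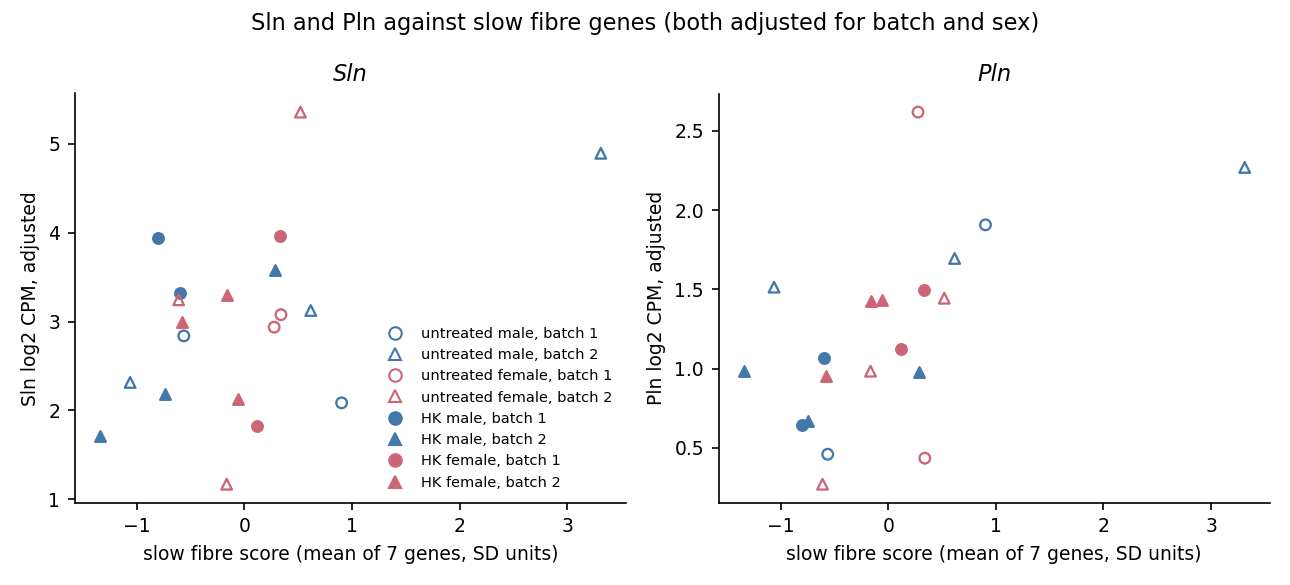
Sln (left) and Pln (right) against the slow fibre score, each point a mouse, both adjusted for batch and sex. The y axes are log2 CPM and the x axis is the mean of 7 slow fibre genes in SD units. Untreated male 3, a score of 3.31, stands apart at the right of both panels.

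Levels of slow fibre genes differed between mice, and their part in the values of Sln and Pln was not tested beyond these relations. The 7 slow fibre genes summed to 632, 1834 and 3241 CPM (lowest, median, highest) in HK mice and to 690.0, 2562 and 6063 CPM in untreated mice, with untreated male 3 at the top and Myh7, the slow myosin, the most abundant. With HK, 7 of 7 slow fibre genes had a log2 fold change under 0, with a median of -0.71, and 0 passed by edgeR (4 at an unadjusted p under 0.05). Denervation genes summed to 85.3, 142 and 176 CPM in HK mice and to 68.5, 143 and 472 CPM in untreated mice, with untreated male 5 at the top, and 0 of 9 passed with HK by edgeR (5 at an unadjusted p under 0.05, 1 higher and 4 lower). Of all genes 2.78% were higher and 3.35% lower with HK at that unadjusted level. In males the slow fibre sums were 632, 832 and 6063 CPM and in females 2251, 3022 and 4115 CPM. By edgeR's test 6 of 7 genes were lower in males (median log2 difference -1.16), against 7.33% of all genes.

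The wider machinery around the members was compared in the same way. A list of 71 other genes of excitation-contraction coupling and calcium handling was examined, of which 61 passed the filter. Between the sexes 19 of these 61 had an adjusted p under 0.05 by edgeR's quasi-likelihood test, 13 higher in males and 6 lower, with a median log2 difference of 0.02. These are 21.3% higher and 9.84% lower, against 8.79% and 7.33% of all genes. Among the calcium release channel and its partners 6 of 13 were higher in males (46.2%) and 0 lower. At an unadjusted p under 0.05, 8 of these 13 were higher in males and 3 lower, against 15.6% and 14.8% of all genes. Of these 19 calls, 3 were made under every alternative setting (Ryr3, S100a1 and Cav3), 14 with each single mouse left out, and 0 reversed.

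Ryr3, the ryanodine receptor isoform found in few adult muscles, was at 2.43, 3.06 and 6.44 CPM in males and at 0.602, 0.909 and 1.48 CPM in females. Every male was above every female, and the share of all genes that separate the sexes in this way is not given here. The log2 difference was 1.91 (SE 0.202, adjusted p = 1.33e-06 by edgeR). Per kb of exon its mean over the 20 mice was 0.124 CPM per kb, so its transcript was very scarce beside the 247 CPM per kb of Ryr1. S100a1, a calcium-binding modulator of the release channel, was higher in males by a log2 difference of 0.43 (SE 0.063, adjusted p = 7.51e-05 by edgeR), with values of 73.5 to 101 CPM in males and 57.9 to 81.7 CPM in females. Cav3, the muscle caveolin, was higher by 0.48 (SE 0.072, adjusted p = 9.05e-05 by edgeR), with 33.1 to 55.5 CPM in males and 25.8 to 34.2 CPM in females, and Bin1, which shapes the tubules, by 0.25 (SE 0.049, adjusted p = 0.00149).

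Among the pump and regulator genes, 2 were lower in males by edgeR and 1 was higher. Atp2a2 was at 205, 254 and 1151 CPM in males and at 540, 684 and 1144 CPM in females, where 9 of 10 males were under the female median and untreated male 3 was the exception. It was lower in males by a log2 difference of -1.10 (SE 0.250, adjusted p = 0.00445 by edgeR). Strit1, with 3 to 93 counts per mouse, was also lower in males, at -1.21 (SE 0.401, adjusted p = 0.0443 by edgeR), a call kept in 4 of the 20 fits that left out a single mouse. Mrln was higher in males, with 36.8 to 70.6 CPM against 26.1 to 47.3 CPM and a log2 difference of 0.45 (SE 0.089, adjusted p = 0.00152 by edgeR). Atp2a1, the pump of fast fibres, had a log2 difference under 0 like Atp2a2, at -0.13 (SE 0.078, adjusted p = 0.293 by edgeR), with 8 of 10 males under the female median. In the same direction as Atp2a2 went Ppp3ca, a catalytic subunit of calcineurin (-0.36), the voltage sensor subunit Cacnb1 (-0.29) and the sodium-calcium exchanger Slc8a3 (-0.29). Calm3, a calmodulin gene (0.42), and Fkbp1a, which stabilises the closed release channel (0.18), were higher in males.

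Genes of other marker lists also passed between the sexes, and their part in these differences was not tested. Fast fibre genes were higher in males in 3 of 7, led by Myh4, with sums of 105744 to 143287 CPM in males and 105083 to 150411 CPM in females. Adipocyte genes were lower in males in 2 of 3 tested, led by Adipoq, with sums of 1.42 to 19.2 CPM against 2.41 to 48.1 CPM, and Ucp1 had at most 3 counts in any mouse. A single gene passed in the skeletal muscle (6 genes, higher), macrophage (5 genes, higher), denervation (9 genes, lower) and blood (4 genes, lower) lists, where 16.1% of all genes passed. At an unadjusted p under 0.05, 4 macrophage genes and 2 skeletal muscle genes were higher in males and 0 lower. In the denervation list 1 was higher and 1 lower at that level, and in the blood list 0 and 1. Of all genes 15.6% were higher at that level and 14.8% lower. In the heart, smooth muscle, endothelium and fibroblast lists 0 passed by edgeR, while 3, 1, 2 and 2 had an unadjusted p under 0.05.

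**Figure D5:**
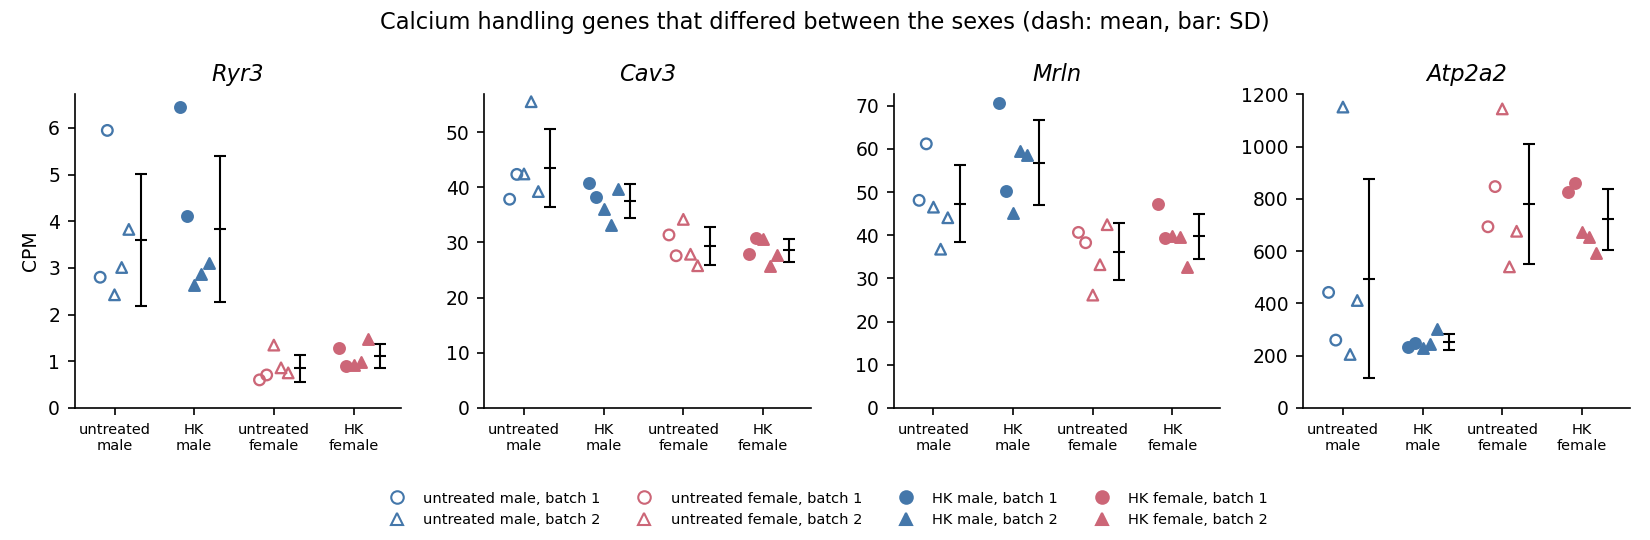
Ryr3, Cav3, Mrln and Atp2a2 in each mouse, in CPM, by treatment and sex, with the mean as a dash and the SD as a bar (5 mice per group). Males are blue and females red. Ryr3 separates the sexes without overlap, and untreated male 3 stands apart from the other males in Atp2a2 at 1151 CPM.

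With HK, 0 of the 61 genes of the wider list passed by edgeR's quasi-likelihood test, with 7 higher (11.5%) and 3 lower (4.92%) at an unadjusted p under 0.05, against 2.78% and 3.35% of all genes, and a median log2 fold change of 0.03. The 3 lowest p upward (n = 20) were those of Camk2a, a calmodulin-dependent kinase (0.16, p = 0.0128), Calm3 (0.22, p = 0.0156) and Mrln (0.21, p = 0.0313). The 3 downward (n = 20) were those of Casq2 (-0.57, p = 0.00777), Trim72, a membrane repair protein (-0.22, p = 0.0249), and Atp2a2 (-0.53, p = 0.0439). All 6 had an adjusted p of 0.795 by edgeR. Casq2 was at 22.2, 48.5 and 60.9 CPM in HK mice and at 23.6, 57.6 and 88.4 CPM in untreated mice, with 9 of 10 HK mice under the untreated median and wide overlap. Atp2a2 was at 229, 448 and 862 CPM in HK mice and at 205, 608 and 1151 CPM in untreated mice, with 6 of 10 HK mice under the untreated median. Without untreated male 3 its log2 fold change was -0.24. Casq2, Calm3 and Atp2a2 passed with HK without the filter on low counts, as did the member Sln. The estimated prior degrees of freedom of that fit were infinite, so each gene took the trended spread.

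Of the marker lists named here 0 genes passed with HK by edgeR. At an unadjusted p under 0.05, 2 of the 3 genes of the heart list tested, 1 of 4 endothelium genes and 1 of 6 skeletal muscle genes were lower, and 1 of 4 blood genes was higher. Of all genes 3.35% were lower and 2.78% higher at that level. In the smooth muscle, macrophage, fibroblast, adipocyte and fast fibre lists there were 0 at that level.

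Between the batches 20 of the 61 passed by edgeR's test, 7 higher in batch 2 and 13 lower, with a median log2 difference of 0.01. This share of 32.8% is under the 37.1% of all genes, with 11.5% higher against 18.2% and 21.3% lower against 19%. Among them were 3 calcineurin subunits that were lower in batch 2: Ppp3cb by a log2 difference of -0.46, Ppp3r1 of -0.36 and Ppp3ca of -0.27. For Ppp3cb every mouse of batch 2, at 239 to 377 CPM, was under every mouse of batch 1, at 393 to 524 CPM. The share of all genes that separate the batches in this way is not given here. Also lower were myotubularin Mtm1 (-0.37), the exchanger Slc8a1 (-0.42), the plasma membrane pump Atp2b1 (-0.28), the uniporter regulator Micu3 (-0.34) and the calmodulin gene Calm2 (-0.38), all as log2 differences. Higher in batch 2 were Mcub, a subunit of the mitochondrial calcium uniporter that lowers its activity (1.43), Rcan1, an inhibitor of calcineurin (0.81), Gem, an inhibitor of calcium channels (1.35), and Trim72 (0.35). Among the 61 genes of the wider list, these 12 had the lowest p between the batches, with adjusted p of 0.00715 or less by edgeR.

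The 10 genes of the wider list that did not pass the filter were Ryr2, Jph3, Jph4, Stac, Stac2, Cacna1d, Fkbp1b, Smim6, Atp2b2 and Rem2, mostly forms known from heart, brain or other tissues. The release channel of this muscle was thus counted almost wholly as Ryr1, with 1993533 counts over the 20 mice, against 824 for Ryr3 and 98 for Ryr2.

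The genes whose levels followed a member most closely were found by Pearson r of log2 CPM adjusted for batch and sex over the 20 mice, among the other 13625 genes. For Ryr1 they were Scn4a, the muscle sodium channel (r = 0.907), Eif4ebp2 (0.898) and Wnk2 (0.885). Among the members, Cacna1s was the closest to Ryr1 with r = 0.826, at place 20 of 13625, and Jph1 followed with 0.553 at place 679. Among the closest to Sln were Lsm3 (0.811) and Dnajc8 (0.801), and for Pln they were Meg3 (0.766), Nrbp2 (0.747) and Arhgef1 (0.743). These r are the highest of 13625 values over only 20 mice, and such a maximum is high even among unrelated genes. Whether any of them lies above that was not tested.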

How the data were processed

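The authors sequenced rRNA-depleted RNA on a NextSeq 500, aligned reads with STAR 2.6.1c to GRCm38.p6, and deposited counts, raw read counts per gene for each mouse. The sources used here name neither the counting tool nor its strand setting. Total counts per mouse were 13900180 to 30469644. Mice of the same group and batch differed by more than counting error, so the spread between mice also limits the precision. Tests were run with edgeR 4.0.16 under R 4.3.3: filterByExpr on the 4 groups, TMM scaling, the quasi-likelihood test with batch, sex and treatment as terms, and Benjamini-Hochberg adjustment over 13626 genes. Alternatives were DESeq2 1.42.0 and limma 3.58.1 voom, other scalings, no filter, other covariates, a replicate block, subsets of mice and each mouse left out. Correlations used scipy 1.17.1 with 100000 permutations and a prior count of 2. The edgeR test of HK against untreated was tried on simulated counts with known changes. Gene lengths and positions came from GENCODE M21, matched for 55141 of 55401 identifiers. The paper quantified genes with a later GENCODE release, so lengths and shared exon bases rest on another release than the counts. Named genes were the 10 members, the lowest p of the wider list (at most 12 per comparison), genes that place a member, the 3 most alike, and the most abundant marker of each list. A marker list and a gene among the most alike are not reported here. Members and lists were chosen with earlier results of these data known.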

Additional observations from a re-analysis of the deposited data

Results flagged for a closer look

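The gap of the highest or lowest mouse to the next was measured on log2 CPM adjusted for batch and sex, within each treatment. Stac3 in HK female 4 was the highest of the 10 HK mice at 308 CPM, with a gap to the next mouse of 0.533 of the whole HK range on that scale. Asph in untreated male 4 was the highest of the 10 untreated mice at 295 CPM, with a gap of 0.518 of the untreated range. Both gaps are above the 95% critical value of 0.466 for 10 samples. On CPM not adjusted for batch and sex, a scale chosen after seeing the data, the gap of Stac3 in HK female 4 was 0.670 and that of Asph in untreated male 4 was 0.223. On that scale 2 other mice were above the critical value, HK male 1 for Asph (0.550) and untreated female 3 for Sln (0.621). Chance alone marks about 1 in 20 groups, and 20 groups were examined at both ends. The HK effect on Sln differed between the batches by a log2 value of -1.918 (n = 20, p = 0.0395, adjusted p = 1 by edgeR's quasi-likelihood test).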

How the results depend on the processing

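Of the log2 differences of the 10 genes, 120 of 130 kept their direction and their side of the threshold in the HK comparison, 90 of 110 between the sexes and 59 of 70 between the batches, under the settings other than leaving out a single mouse. Of the other 11 between the batches, 5 lost the call of Jph1 or Jph2: without covariates (Jph1 -0.203, Jph2 -0.215), without both untreated mice numbered 3 (-0.15 and -0.144) and with the size factors of DESeq2 (Jph2 -0.203). The count of genes called with HK was 7 with the DESeq2 Wald test, 502 without the filter on low counts and 0 in the other settings of edgeR and with limma voom. Without the filter the interaction with sex gave 314 calls and that with batch 225. In those fits the estimated prior degrees of freedom were infinite, against 4.26 with the filter, so each gene took the trended spread, and the moderated dispersion of Sln was 0.63 against 14.3. Sln then had an adjusted p of 0.00232 with HK and 1.26e-19 between the sexes by edgeR. Genes called between the sexes were 630 in HK mice alone, 452 in untreated mice alone, 1312 in batch 1 alone and 936 in batch 2 alone, with fewer mice in each fit. With the replicate block 0 genes were called with HK (lowest adjusted p 0.107, edgeR 0). For HK and untreated mice of the same sex and replicate number, r over 10 pairs ran from -0.330 to 0.232, with 0 best matches. Of the 10 genes, depth limits Pln the most, with 16 to 203 counts per mouse.

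The sign turned as follows, and the cause was not tested. With HK in batch 1 alone: Cacna1s -0.026, Cacng1 -0.004, Ryr1 -0.022, Sln 0.682. With HK for Stac3: 0.001 in batch 2 alone, 0.014 in females, 0.002 without the filter. Trdn was -0.032 in females, and Sln 0.407 without both untreated mice numbered 3. Between the sexes in batch 1 alone: Cacna1s 0.157, Ryr1 0.231, Pln -0.429. Jph1 was -0.016 in batch 2 alone and -0.051 in untreated mice alone. Pln was -0.36 in HK mice alone, -0.12 without both untreated mice numbered 3, -0.029 without covariates, -0.005 without the filter and -0.001 with upper quartile scaling. Between the batches Cacna1s was 0.004 and Sln -0.515 without those mice, Cacng1 0.008 with DESeq2 and 0.009 with its size factors, and Sln -0.105 with voom. Adjusted for batch only, r of Pln with slow fibre genes was 0.378 and that of Sln 0.580. Without the 2 farthest mice the former was 0.511, and in batch 1 alone 0.486. Within batch 1, r was -0.492 for Sln with slow fibre genes (0.686 in batch 2), -0.200 for Sln with Pln and -0.485 for Pln with denervation genes.

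With a single mouse left out, calls with HK ran from 0 to 1 (1 without HK female 1). Log2 differences with HK ran from 0.043 to 0.112 for Cacna1s, 0.063 to 0.155 for Ryr1, -0.087 to -0.04 for Asph, -0.009 to 0.115 for Cacng1, -0.042 to 0.017 for Stac3 and -0.021 to 0.091 for Trdn. Pln ran from -0.132 to 0.273 between the sexes. Between the batches Cacna1s ran from -0.08 to 0, Cacng1 from -0.052 to 0.026, Stac3 from -0.016 to 0.055 and Sln from -0.178 to 0.37. The r of Pln with slow fibre genes ran from 0.473 to 0.679, of Sln with slow fibre genes from 0.231 to 0.565, of Sln with Pln from -0.01 to 0.262, of Sln with denervation genes from 0.399 to 0.564, of Pln with denervation genes from 0.07 to 0.325.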
